A study of Danio rerio with 4 samples.

Results

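Tight and gap junction genes were followed in testis RNA of zebrafish, grouped by their symbols and not by any measured value. A gene was a member when its symbol named a claudin, occludin, a MARVEL domain protein, a tight junction scaffold (TJP or cingulin type), a junctional adhesion molecule, a nectin, ESAM, a connexin, or cadherin 1, 2 or 5. This gave 106 of the 35066 Ensembl genes in the files: 39 claudins, 2 claudin domain proteins (CLDND1 and cldnd1a), 7 MARVEL proteins, 8 scaffolds, 12 immunoglobulin-like adhesion proteins, 35 connexins and 3 cadherins. The symbols came from a table of gene names in which capitals drop the letter that separates duplicated copies. For 10 symbols carried by 2 members each, the Ensembl identifier tells the copies apart below.

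The fish were wild type AB males of 5 months per the labels, although the series' design text speaks of females. The groups were an unexposed control, dibutyl phthalate (DBP), diisobutyl phthalate (DiBP), and both phthalates together (DBP+DiBP, written as "with both" beside values), each exposure lasting 30 days. These plasticizers are isomers with linear butyl chains in DBP and branched ones in DiBP. No dose or number of fish per library was given in the sources used here. Each group was 1 library, so a difference between libraries has no replicate check, no test was possible, and the values describe these 4 libraries alone. Markers of germ cells (DDX4 at 352 FPKM in control), Leydig cells (insl3) and Sertoli cells (amh at 79.1 FPKM) were present in all 4 libraries, as the tissue label states. DBP+DiBP stood apart in markers of other tissues: those of liver summed to 348 FPKM against 44.7 in control, leukocytes to 287 against 51.6, and smooth muscle to 1520.4 against 386, beside the intestinal markers given below. In turn, apoa2 (209 FPKM), lyz (181) and 1 TAGLN copy (1269.6) made up most of these sums in DBP+DiBP. CORO1A (40.4 against 37.9) and the other TAGLN copy (53.7 against 47.7) were under 2-fold. The other markers compared in these lists were past 2-fold higher, some of them compared only through DBP+DiBP. Leydig markers went the other way, at 422 against 2281 FPKM, most of which was insl3 (293 against 2072). Of the 6 Leydig genes 2 were past 2-fold lower and 0 higher, beside 6.42% lower and 9.57% higher over all features compared. The Leydig gene cyp11c1 was at 46.4 against 53.3 FPKM. Of the smooth muscle markers 1 was at 0 in control, and no other marker named here was at 0.

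Tight junctions seal the space between neighbouring epithelial or endothelial cells. Claudins form the seal or its pores, occludin and tricellulin share the strands, and the ZO proteins encoded by TJP genes tie them to actin. In the testis, tight junctions between Sertoli cells help close off the compartment of developing germ cells. In mice this barrier depends on claudin 11, and claudins 3 and 5 are also found in it. Gap junctions are channels built of connexins, and in mice GJA1 (Cx43) couples Sertoli cells to each other and to germ cells.

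Levels are in FPKM, which scales fragment counts by gene length and by library, a unit inferred from the values. Totals ran from 547485 to 605447 FPKM, and read numbers were not given. The commonest ratio to control among 2431 features under 0.3 FPKM put sequencing depth between 1.05 and 1.1 times that of control. This is a rough estimate, as the commonest bins held 21 to 32 features. Ratios are log2 ratios of FPKM + 1, which understate the folds of weakly expressed genes. A gene is called higher or lower at 2-fold or more. Of the 106 members, 53 averaged at least 1 FPKM over the libraries and were compared, as 52 features because CLDN8 and cldn8.2 had identical values. Of the 53 below that level, 25 were connexins and 18 claudins, and GJD2 (ENSDARG00000067999) was listed at 0 in all 4 libraries. Of the members compared, 7 (cdh5, cldn15b, cldn15lb, gja12.1, gja13.1, jam2b and marveld2l) reached 1 FPKM only through DBP+DiBP.

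**Figure D1:**
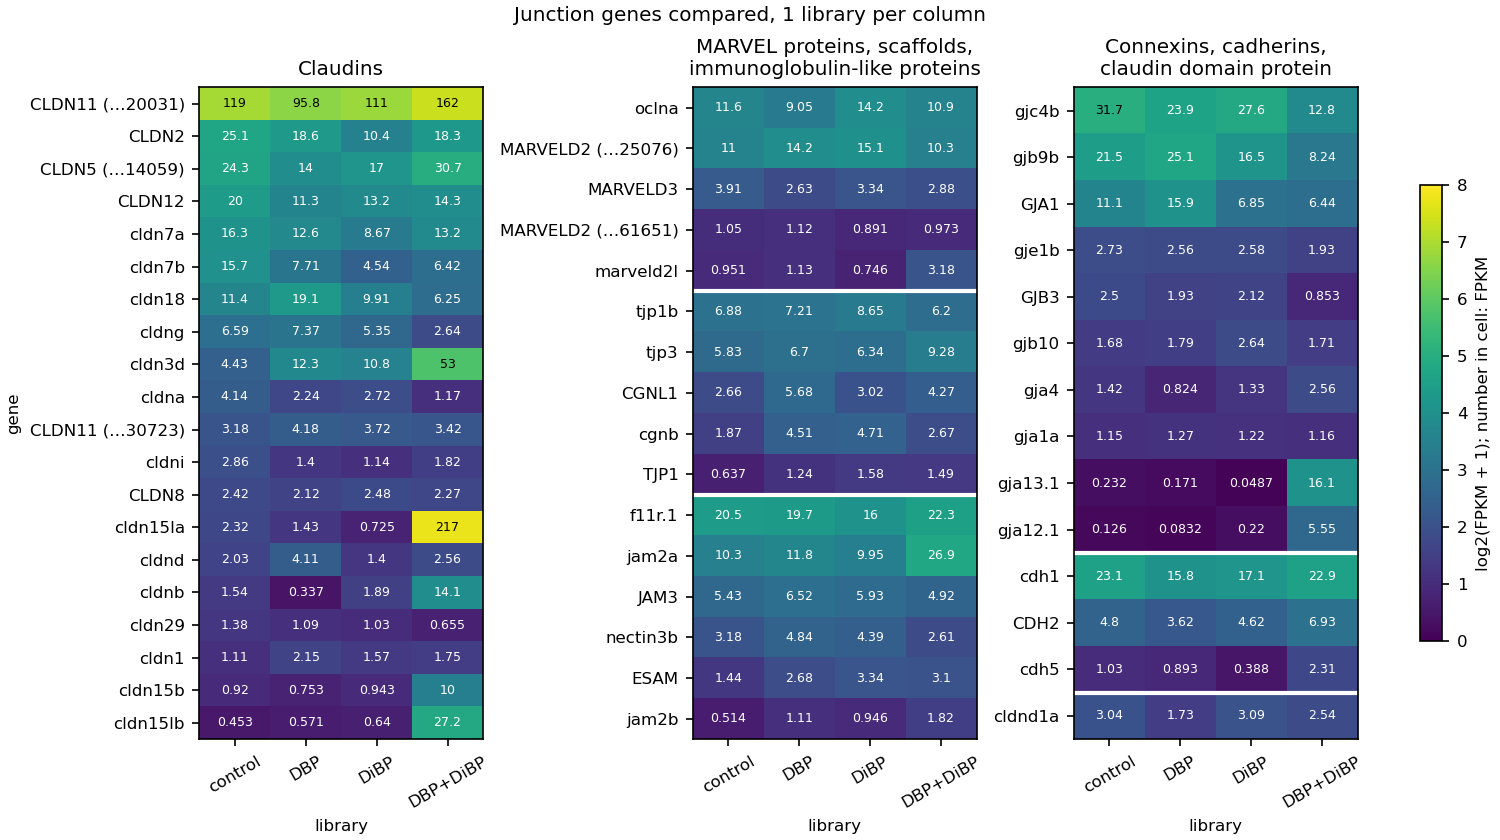
FPKM of the junction features compared, apart from those not reported by name, with genes in rows grouped by role and ordered by control, and the 4 libraries in columns (colour, log2(FPKM + 1); number, FPKM; final digits of the identifier tell copies apart). CLDN11 is the brightest claudin in control, DBP and DiBP, and cldn15la at 217 FPKM in DBP+DiBP.

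In control testis the claudin transcript pool was led by a claudin 11 gene. CLDN11 (ENSDARG00000020031) stood at 119 FPKM in control, 95.8 with DBP, 111 with DiBP and 162 with both. It held 44.4% of the summed claudin FPKM in control, 43.2% in DBP and 52.4% in DiBP, and ranked first among claudins in these libraries. The other copy, CLDN11 (ENSDARG00000030723), had between 3.18 and 4.18 FPKM. Next in control came CLDN2, which forms a cation pore in mammals, at 25.1 FPKM, CLDN5 (ENSDARG00000014059) at 24.3, and CLDN12 at 20.02 FPKM. The values of CLDN12 were shared with another identifier and are uncertain. In all, 15 members reached 10 FPKM or more in control, 7 of them claudins.

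The barrier claudins, taken as the 6 genes with symbols of claudins 3, 5 and 11, stayed mostly within 2-fold of control. CLDN11 (ENSDARG00000020031) had log2 ratios of -0.31 with DBP, -0.10 with DiBP and 0.44 with both, against control. CLDN5 (ENSDARG00000014059), whose product is also the main claudin of endothelium, was at 24.3 FPKM in control, 14.0 with DBP, 17.0 with DiBP and 30.7 with both. Its ratios to control were under 2-fold, and the value in DBP+DiBP was past 2-fold above that in DBP (1.08, or 0.91 with a pseudocount of 5). Among the 4 compared the exception was cldn3d, a claudin of the claudin 3 type, at 4.43 FPKM in control, 12.3 with DBP, 10.8 with DiBP and 53.0 with both. It was past 2-fold above control in each exposed library, by 1.29, 1.12 and 3.31 on the log2 scale. With a pseudocount of 5 the values for DBP and DiBP were 0.87 and 0.75, under 2-fold. The remaining barrier claudins were low: cldn3c, below the level for comparison, had 0.362 FPKM in control and 2.97 with both (1.54), and CLDN5 (ENSDARG00000043716) stayed under 1 FPKM.

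Beside the other members, the 4 barrier claudins compared had a median log2 ratio of 0.38 in DBP+DiBP against control, with 1 higher and 0 lower. The 48 other members had a median within 0.01 of zero, 8 higher and 5 lower. Over all features the median was -0.11, with 9.57% higher and 6.42% lower. In DiBP the medians were 0.04 for the barrier claudins, -0.06 for the other members and -0.01 over all features. In DBP, both sets had medians within 0.01 of zero, beside 0.05 over all features. With 4 genes these medians are no measure of the barrier claudins as a class. Sertoli cell markers differed in both directions in the same libraries: amh was at 79.1, 52.6, 42.7 and 31.3 FPKM in control, DBP, DiBP and DBP+DiBP, and gsdf at 55, 95, 89.9 and 339.6. The 8 Sertoli marker genes summed to 251 FPKM in control, 273 with DBP, 249 with DiBP and 442 with both, and none was listed at 0. In DBP+DiBP most of that sum was gsdf. There DMRT1 was at 54.4 FPKM against 105 in control, and inha at 9.21 against 4.33. The part of the Sertoli markers in the claudin values was not tested. In such bulk RNA, fewer cells of a type and less RNA per cell cannot be told apart.

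**Figure D2:**
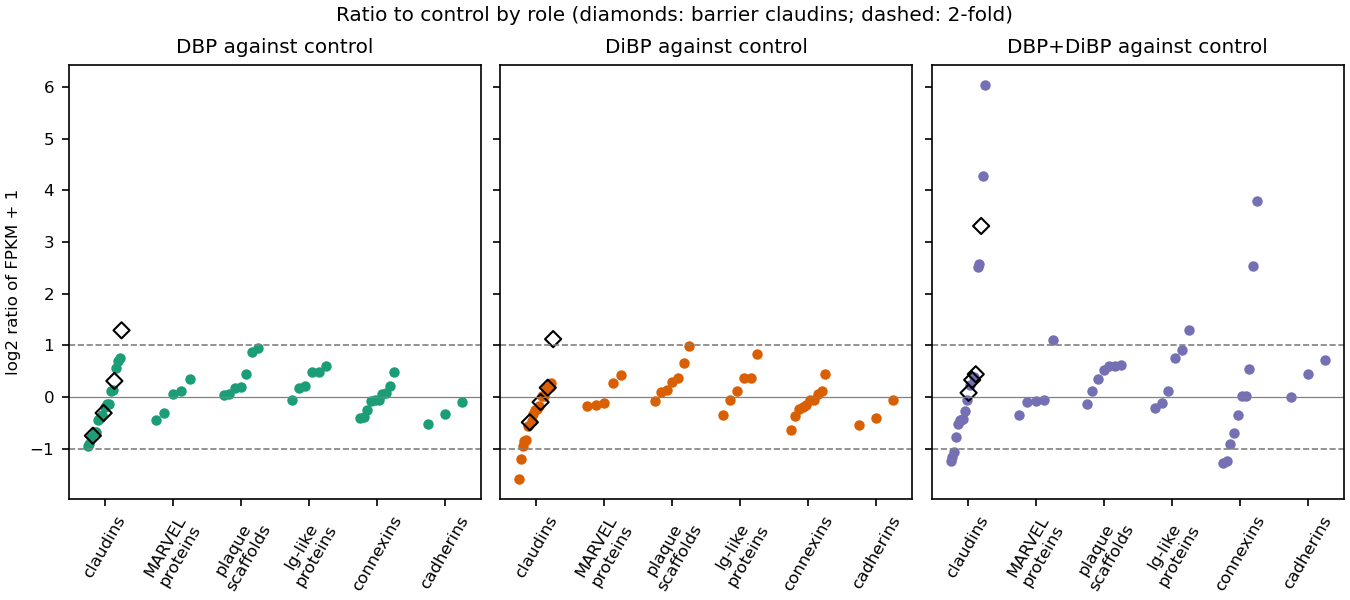
Log2 ratios of FPKM + 1 to control for the members compared, by role, in DBP, DiBP and DBP+DiBP (points, genes; diamonds, barrier claudins; dashed lines, 2-fold). The diamond above 2-fold in each panel is cldn3d, and DiBP has 1 point beyond 3-fold, cldn7b at -1.59. The claudin domain gene is not drawn.

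In DBP nearly all junction genes lay within 2-fold of control. Of the 52 features compared 1 was higher, cldn3d, and 0 lower. Over all 23405 features 11.2% were called, 6.68% higher and 4.5% lower. The lowest ratio was that of cldn7b, a claudin of epithelia, at 7.71 FPKM with DBP and 15.7 in control (-0.94). The scaffold cgnb (cingulin) had 4.51 FPKM with DBP and 1.87 in control (0.94), and CGNL1 (paracingulin) 5.68 and 2.66 (0.87). All 7 scaffolds compared had positive ratios in DBP, each under 2-fold on the scale of FPKM + 1. The median over members was -0.01, beside 0.05 over all features.

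DiBP against control gave 1 higher and 2 lower features of 52, beside 8.46% called over all features, 4.6% higher and 3.86% lower. The lower genes were cldn7b, at 4.54 FPKM in DiBP and 15.7 in control (-1.59), and CLDN2, at 10.4 and 25.1 (-1.20). Across the libraries, cldn7b was lower than control in DBP (7.71 FPKM), DiBP (4.54) and DBP+DiBP (6.42), and past 2-fold in DiBP and DBP+DiBP. CLDN2 was at 18.6 FPKM in DBP and 18.3 in DBP+DiBP, so DiBP was its lowest library. The ratio of CLDN2 was -0.97, under 2-fold, at a pseudocount of 5. The other claudin 7 copy, cldn7a, went from 16.3 FPKM in control to 8.67 in DiBP (-0.84), and cldni from 2.86 to 1.14 (-0.85). The 11 intestinal marker genes summed to 46.9 FPKM in control, 29.3 in DBP and 11.9 in DiBP. Of the 7 compared, 3 were lower in DiBP and 0 higher, and most of the sum in control was lgals2b, at 23.9 FPKM against 0.805 in DiBP. VIL1 (0.760 in control, 1.12 in DiBP) and epcam (6.53 and 6.97) were not lower. Their part in the claudin values was not tested.

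DBP+DiBP stood apart, with 9 features higher and 5 lower than control of 52, or 26.9%. Over all features 16% were called, 9.57% higher and 6.42% lower. The higher genes were cldn15la, cldn15lb, cldn15b, cldn3d, cldnb, gja13.1, gja12.1, jam2a and marveld2l. The lower genes were the connexins gjb9b and gjc4b and the claudins cldn7b, cldna and cldng. Members that entered only through their level in DBP+DiBP had to differ there. When the mean of at least 1 FPKM was asked of control, DBP and DiBP alone, a choice made after seeing the data, 4 of 45 features were higher and 5 lower. Over all features that choice gave 6.57% higher and 7.16% lower. The 4 were cldn15la, cldn3d, cldnb and jam2a.

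The highest ratios to control in DBP+DiBP were those of cldn15la and cldn15lb, claudins of the claudin 15 type. In zebrafish cldn15la is used as a marker of intestinal epithelium. It was at 2.32 FPKM in control, 1.43 with DBP, 0.725 with DiBP and 217 with both, a log2 ratio to control of 6.04. Its relative cldn15lb had 0.453, 0.571, 0.640 and 27.2 FPKM in the same order (4.28), and cldn15b 0.920, 0.753, 0.943 and 10.04 (2.52). DBP+DiBP was the highest library for each of these genes. cldn15lb and cldn15b entered the comparison only through it, so they had to be high there. For cldn15la the ratio of FPKM + 1 in DiBP to control was just under 2-fold lower (-0.95). The claudin 15 genes made up 1.38% of summed claudin FPKM in control and 42.6% in DBP+DiBP. Over the same libraries the share of the CLDN11 copies went from 45.6% to 27.7%, although their summed FPKM was higher in DBP+DiBP, at 165 against 122. Summed claudin FPKM was 269 in control, 222 with DBP, 212 with DiBP and 597 with both.

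**Figure D3:**
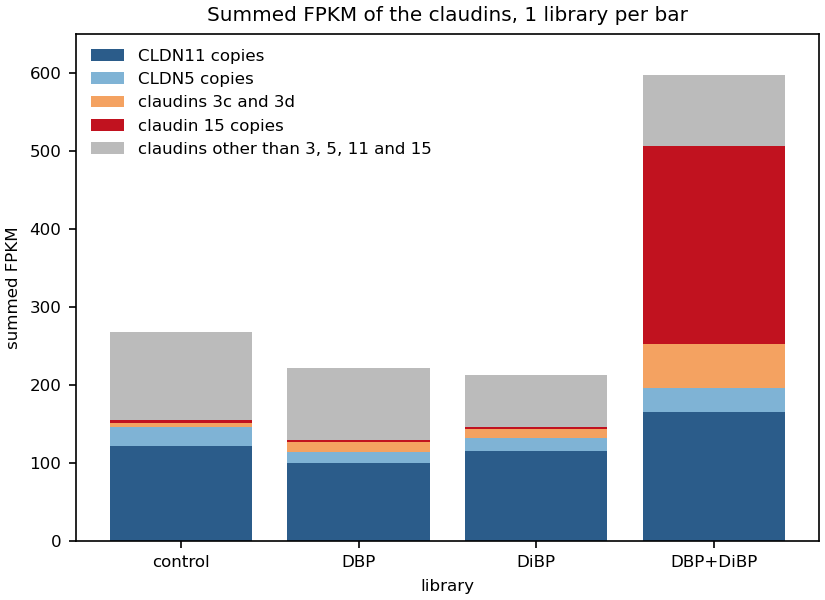
Summed FPKM of the claudins in each library (bars, 1 library each), stacked by claudin type. The claudin 15 genes sum to 3.70 FPKM in control and 254 with both, and the CLDN11 copies to 122 and 165 FPKM.

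Another epithelial claudin, cldnb, known from zebrafish skin and lateral line, was at 1.54 FPKM in control, 0.337 with DBP, 1.89 with DiBP and 14.1 with both (2.58 against control). DBP was its lowest library and DBP+DiBP the highest. Intestinal epithelium markers were high in DBP+DiBP too. Against control 6 of the 7 compared were past 2-fold, all upward (median log2 ratio 4.91). Over all features 9.57% were higher and 6.42% lower. VIL1, FABP2 and CDH17 reached a mean of 1 FPKM only through DBP+DiBP, so as markers compared they had to be high there. The 11 marker genes summed to 6327.9 FPKM against 46.9. In DBP+DiBP most of that sum was lgals2b (3665.9 FPKM) and FABP6 (2322.6). VIL1, a brush border protein, was at 0.760, 0.386, 1.12 and 51.8 FPKM in control, DBP, DiBP and DBP+DiBP, and the intestinal cadherin CDH17, no member here, at 1.03, 0.903, 0.521 and 38.5. None of these markers was listed at 0 in any library. Pan-epithelial epcam was at 6.53 FPKM in control and 9.75 with both, under 2-fold. Kidney tubule markers summed to 41.2 FPKM in control and 30.5 with both. Most of each sum was 1 SLC20A1 copy (ENSDARG00000010641), with 36.5 and 25.6 FPKM. Of the 8 kidney genes 2 were compared, and 0 were past 2-fold from control in DBP+DiBP. The others averaged under 1 FPKM, so the sums say little about them. The part of intestinal RNA in the values of these claudins was not tested.

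**Figure D4:**
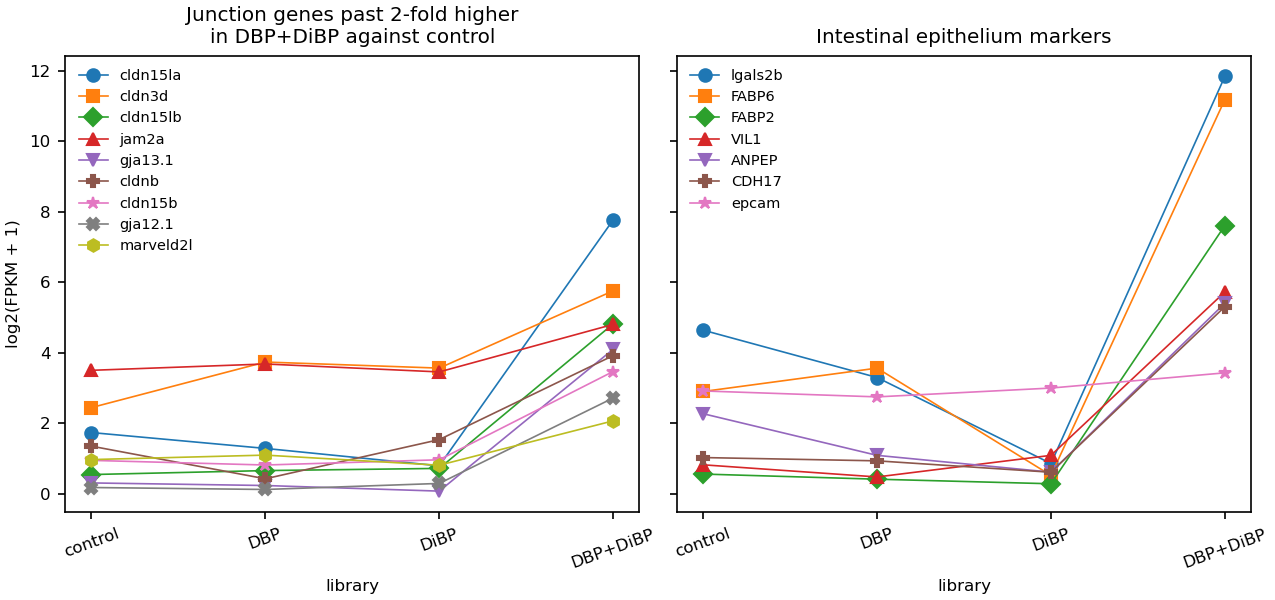
Levels as log2(FPKM + 1) in the 4 libraries for the 9 junction features called higher in DBP+DiBP (left) and the 7 intestinal markers compared (right); thin lines join the values of a gene. All 7 markers are highest in DBP+DiBP, from 9.75 FPKM for epcam to 3665.9 for lgals2b. The junction features were chosen for being high there, and cldn15b, cldn15lb, gja12.1, gja13.1 and marveld2l entered only through that library. The filter on the markers also included DBP+DiBP, and VIL1, FABP2 and CDH17 passed it only through that library.

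The claudins that stood lower in DBP+DiBP had no common level. For cldna the values were 4.14 FPKM in control, 2.24 with DBP, 2.72 with DiBP and 1.17 with both (-1.24). For cldng they were 6.59, 7.37, 5.35 and 2.64 FPKM (-1.06), and for cldn7b 15.7, 7.71, 4.54 and 6.42 (-1.17). At a pseudocount of 5 these ratios were -0.57, -0.60 and -0.86, all under 2-fold, and with scaling by median ratios that of cldng was -0.95. cldn18, at 11.4 FPKM in control, was at 19.1 in DBP and 6.25 in DBP+DiBP, which lay past 2-fold apart (-1.47).

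Of 10 connexins compared, 2 were higher and 2 lower in DBP+DiBP against control, beside 9.57% and 6.42% of all features. The 2 higher ones entered the comparison only through that library. gjc4b was the highest connexin in control at 31.7 FPKM, and had 23.9 with DBP, 27.6 with DiBP and 12.8 with both (-1.24 against control). gjb9b was at 21.5 FPKM in control, 25.1 with DBP, 16.5 with DiBP and 8.24 with both (-1.28). For each of these genes the value in DBP+DiBP was below each of the other libraries. The ratio of gjb9b was just under 2-fold once the pseudocount was 5. Germ cell markers were low in the same library: of 6 compared, 5 were lower than control and 0 higher (median log2 ratio -1.18), with summed values of 1382.1 FPKM in control and 642 with both. Whether this bears on the connexins was not tested.

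In contrast, gja13.1 had 0.232 FPKM in control, 0.171 with DBP, 0.0487 with DiBP and 16.1 with both (3.80), and gja12.1 had 0.126, 0.0832, 0.220 and 5.55 (2.54). Without DBP+DiBP they averaged 0.151 and 0.143 FPKM, so as members compared they had to be high there. In that library gja13.1 led the connexins with 25.6% of their summed FPKM. Names of the gja12 and gja13 copies differ between the table of gene names and RefSeq, so the identity of each copy is uncertain. Summed connexin FPKM was 78.6 in control, 79.0 with DBP, 67.2 with DiBP and 63.2 with both.

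GJA1, the Cx43 connexin, was at 11.1 FPKM in control, 15.9 with DBP, 6.85 with DiBP and 6.44 with both. Its ratios to control were 0.48, -0.63 and -0.70, each under 2-fold. DiBP and DBP+DiBP lay close together below control, and DBP above it. The copy gja1a was even over the libraries, between 1.15 and 1.27 FPKM.

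**Figure D5:**
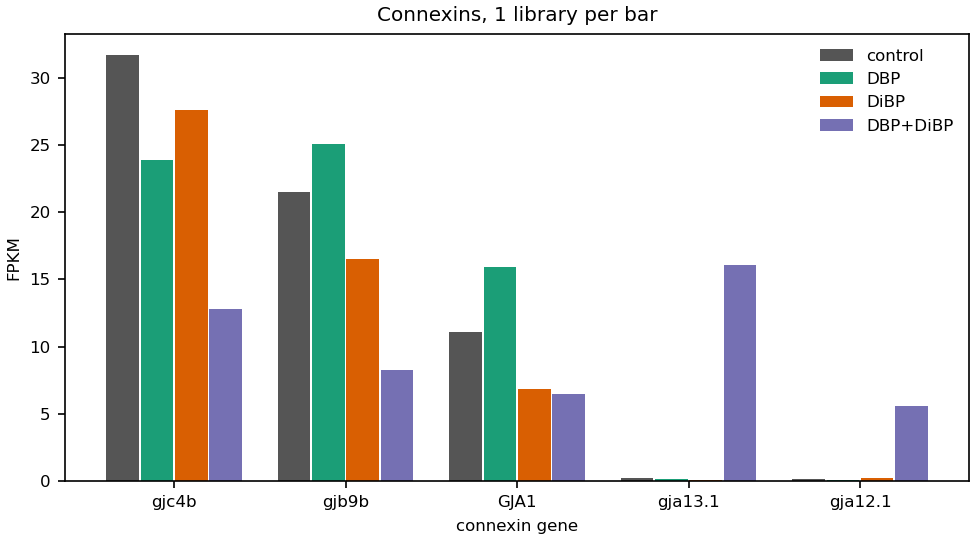
FPKM of 5 connexin genes in each library (bars, 1 library each). gjc4b and gjb9b are lowest in DBP+DiBP at 12.8 and 8.24 FPKM, GJA1 is highest in DBP at 15.9, and gja13.1 and gja12.1 reach 16.1 and 5.55 with both.

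Strand partners and scaffolds were mostly under 2-fold between libraries. The occludin gene oclna was at 11.6 FPKM in control, 9.05 with DBP, 14.2 with DiBP and 10.9 with both, with ratios to control between -0.32 and 0.27. MARVELD2 (ENSDARG00000025076), a tricellulin gene, was between 10.3 and 15.1 FPKM. MARVELD3 ran from 2.63 to 3.91 FPKM, and oclnb stayed below 0.5. The ZO gene tjp1b had 6.88, 7.21, 8.65 and 6.20 FPKM, and tjp3 had 5.83, 6.70, 6.34 and 9.28. The copy TJP1 was low, at 0.637 FPKM in control and 1.58 in DiBP. The highest scaffold ratio against control was that of cgnb in DiBP, at 4.71 FPKM (0.99), just under 2-fold. None of the 7 scaffolds compared passed 2-fold at a pseudocount of 1 in the 6 comparisons. At a pseudocount of 0.1 the calls were cgnb in DBP (1.22) and DiBP (1.29), CGNL1 in DBP (1.07), and TJP1 in DiBP (1.19) and DBP+DiBP (1.11). With equal FPKM totals cgnb was past 2-fold in DiBP as well. marveld2l, also with shared values, was at 0.951 FPKM in control and 3.18 with both (1.1), or 0.46 with a pseudocount of 5. It entered the comparison only through DBP+DiBP, so it had to be high there.

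Among immunoglobulin-like adhesion proteins, jam2a was the member past 2-fold. It encodes a junctional adhesion molecule whose partner across the cell gap is encoded by the jam3 genes. jam2a was at 10.3 FPKM in control, 11.8 with DBP, 9.95 with DiBP and 26.9 with both (1.30), while JAM3 (ENSDARG00000061794) ran from 4.92 to 6.52 FPKM. jam2b was low, at 0.514 FPKM in control and 1.82 with both, and entered the comparison only through DBP+DiBP. f11r.1 (JAM-A) lay between 16 and 22.3 FPKM. ESAM, an adhesion protein of endothelium, was at 1.44 FPKM in control and 2.68, 3.34 and 3.10 in DBP, DiBP and DBP+DiBP. As ratios of FPKM + 1 these were under 2-fold (0.60, 0.83 and 0.75). nectin3b, whose mouse relative is found on spermatids, was at 3.18 FPKM in control, 4.84 with DBP, 4.39 with DiBP and 2.61 with both.

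Of the cadherins, cdh1 (E-cadherin) was at 23.1 FPKM in control, 15.8 with DBP, 17.1 with DiBP and 22.9 with both. CDH2 (N-cadherin) was between 3.62 and 6.93 FPKM. The endothelial cdh5 had 1.03, 0.893, 0.388 and 2.31 FPKM, and DBP+DiBP was past 2-fold above DiBP (1.26, or 0.44 with a pseudocount of 5). As cdh5 entered the comparison only through DBP+DiBP, it had to be high there. The 10 endothelial marker genes summed to 19.7, 22.5, 19.5 and 37.6 FPKM in control, DBP, DiBP and DBP+DiBP, and their part in the cdh5 values was not tested.

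The isomers were set side by side, although no dose was given for either. Of 52 features 1 was higher in DiBP than in DBP and 2 lower, beside 6.97% called over all features, 2.65% higher and 4.32% lower. The lower genes were GJA1 (6.85 against 15.9 FPKM, -1.11) and cldnd (1.40 against 4.11, -1.09), and the higher was cldnb (1.89 against 0.337, 1.11). With a pseudocount of 5 these ratios were -0.82, -0.51 and 0.37, so none passed 2-fold. Of 6 Leydig markers 5 were lower in DiBP than in DBP (median -1.26, sums of 1161.7 and 2754.3 FPKM), and of 5 smooth muscle markers 3 were (median -1.08, sums of 189 and 542). Their part in the GJA1 values was not tested. For the genes called lower in DiBP than in control, CLDN2 and cldn7b, the ratios of DiBP to DBP were -0.79 and -0.65. CLDN11 (ENSDARG00000020031) differed by 0.21 between the isomers and oclna by 0.59. With 1 library each, no interval can be put on these differences.

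DBP+DiBP against DBP gave 9 higher and 4 lower features of 52, beside 21.5% called over all features (10.2% higher, 11.3% lower). Scaling by median ratios made the split against DBP 12 higher and 3 lower, and that over all features 12.9% and 7.21%. As deposited, DBP+DiBP against DiBP gave 10 higher and 1 lower, beside 18.6% (10.5% higher, 8.19% lower). Some higher features entered only through DBP+DiBP. With the filter on control, DBP and DiBP alone, chosen after seeing the data, 45 features were compared. Then 5 were higher and 4 lower against DBP, beside 7.23% and 12.2% of all features. Against DiBP 4 were higher and 1 lower, beside 7.22% and 8.84%. The lower genes against DBP were gjb9b (-1.5), cldn18 (-1.47), cldng (-1.20) and GJA1 (-1.18), and the lower gene against DiBP was gjc4b (-1.05). Under scaling by median ratios GJA1 (-0.96) and gjc4b (-0.88) were under 2-fold, as were these 2 and cldng (-0.70) at a pseudocount of 5. The ratio of cldn15la was 6.49 against DBP and 6.98 against DiBP. Both CLDN11 copies stayed under 2-fold in all 6 comparisons.

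Partner genes of junctions, chosen by symbol from polarity complexes, adherens plaques, desmosomes, pannexins and junction signalling, were also compared. Of 44 compared, DBP had 2 above control past 2-fold and 2 below, DiBP 1 and 0, and DBP+DiBP 4 and 2. These are 9.09%, 2.27% and 13.6% of the partners, beside 11.2%, 8.46% and 16% of all features. Of the 4 higher partners in DBP+DiBP, MAGI1 (ENSDARG00000070145) was compared only through that library, so it had to be high there. Its values were 0.499, 1.07, 0.968 and 8.03 FPKM in control, DBP, DiBP and DBP+DiBP. The polarity gene SCRIB was at 17.7 FPKM in control, 3.15 with DBP, 12.7 with DiBP and 2.93 with both. PANX3, a pannexin channel gene, was at 0.271, 7.07, 0.623 and 4.72 FPKM, high in both libraries that contained DBP. The polarity gene crb3a was at 1.38, 4.89, 4.49 and 0.561 FPKM, higher in both single exposures. The plaque gene JUP (ENSDARG00000070787, plakoglobin) was past 2-fold above control in DBP+DiBP, at 36.0 against 14.5 FPKM.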

How the data were processed

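Testis RNA of 4 groups, 1 library each, was analysed. The submitters' processing notes name HISAT2, the counter HTSeq 0.6.1 and the build GRCz10 without saying what each did. The authors deposited 1 value per gene, taken here as FPKM because values were not whole and their totals differed between libraries. Read numbers, and so intervals, are not available. Strand use is not given in the sources used here. Each file held 49610 identifiers, of which 4775 were at 0 throughout. Identifiers with the same values in all libraries were merged, and the 23405 of 42683 features averaging 1 FPKM or more were compared as log2(FPKM + 1), as deposited, with a 2-fold rule and no test. Symbols came from the table of gene names, and 3 members it lists were not analysed here. The members and all gene lists were chosen with earlier results of these data known, so they give no independent support. Named genes were the barrier claudins, the highest genes of each role in control, members past 2-fold, fixed junction genes and list examples; other members serve as examples chosen after their values were seen. The 2-fold count was run on simulated libraries without noise, which checks the counting and not the calls made in these data. Alternatives were other pseudocounts, filters, scalings and folds, unmerged identifiers, and claudin 11 alone. Python 3.11.15 and pandas 2.3.3 were used. No sequence or coordinates are printed. Some scaffold genes enter the counts and are not reported here by name.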

Additional observations from a re-analysis of the deposited data

How the results depend on the processing

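Counts of junction genes called moved with the settings. Brackets below give the shares of all features called higher, then lower. With a pseudocount of 0.1 the counts were 5 in DBP (11.7% and 7.68%) and 10 in DiBP (8.58% and 8.4%) against control. With a pseudocount of 5 they were 0 (1.77% and 1.35%) and 1 (1.18% and 0.931%). At that setting DBP+DiBP against control gave 9 (4.37% and 1.68%), and DiBP against DBP 0 (0.782% and 1.01%). A mean of at least 5 FPKM, met by 24 members, gave 8 in DBP+DiBP against control (8.74% and 6.56%). It gave 1 in DiBP against DBP (2.38% and 3.76%) and 5 in DBP+DiBP against DiBP (9.19% and 9.98%). Scaling by median ratios (5.55% and 5.01%) or by upper quartiles (5.49% and 5.34%) gave 2 in DBP, 1 higher and 1 lower. Against control, a 1.5-fold rule gave 12 in DBP (16.9% and 10.9%), 10 in DiBP (13.2% and 12%) and 23 in DBP+DiBP (16.8% and 20%). It gave 8 in DiBP against DBP (7.11% and 12.3%). DBP+DiBP had 22 against DBP (17% and 27.1%) and 21 against DiBP (17.9% and 23.3%). A 3-fold rule gave 0 (2.15% and 1.69%), 1 (1.29% and 1.09%) and 7 (5.04% and 1.64%) against control in the same order. It gave 0 in DiBP against DBP (1.11% and 1.14%). DBP+DiBP then had 7 against DBP (5.51% and 2.59%) and 7 against DiBP (5.64% and 1.82%). Leaving DBP+DiBP out of the filter was chosen after seeing the data. It gave 9 in DBP+DiBP against control (6.57% and 7.16%) and 5 against DiBP (7.22% and 8.84%). Median ratios shifted the median of all features in DBP+DiBP against control from -0.11 to 0.01. Then 11 members were higher and 4 lower (11.6% and 4.92%), and against DBP 12 were higher and 3 lower (12.9% and 7.21%). Equal totals gave 2 higher and 2 lower in DiBP against control (6.1% and 2.99%). The difference between barrier claudins and other members was -0.37 in DBP, 0.33 in DiBP against DBP and 1.11 in DBP+DiBP against DBP at a mean of at least 5 FPKM. With claudin 11 alone it was 0.19 in DBP+DiBP against DBP and 0.14 against DiBP. At the settings used in the Results, the barrier claudins had medians of 0.92 in DBP+DiBP against DBP and 0.68 against DiBP. The other members had medians of 0.07 and 0.08 there. Of 45 calls, 27 held under every other pseudocount and scaling that kept the gene. None of the 45 changed sign, but a pseudocount added to both values cannot change the sign of a ratio. Scaling shifts were small beside a call of at least 1: median ratios moved the median of all features from -0.18 to 0.02 in DBP+DiBP against DBP. The absence of sign changes is therefore no support for the calls. A filter or merging that keeps a gene cannot change its ratio as deposited, so those settings could not end a call. The 27 include calls of cldn15b, cldn15lb, gja12.1 and gja13.1, which entered only through DBP+DiBP. Leaving DBP+DiBP out of the filter was not among the settings for these calls. Why counts and calls moved was not tested beyond each setting's construction. No paired analysis was possible because each group has 1 library; leaving out a replicate could not be done either. Read numbers are not known, so no limit from depth can be given for the 53 members averaging under 1 FPKM.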

Other observations

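Among members below the level for comparison, cldnk, a claudin of myelinating glia in zebrafish, was listed at 0 in DBP and at 0.139 FPKM in control, 0.0505 in DiBP and 2.94 in DBP+DiBP. The gap junction gene gja13.2 had 0.218, 0.227, 0.651 and 1.02 FPKM in control, DBP, DiBP and DBP+DiBP. Neither gene averaged 1 FPKM, and both were chosen after their values were seen.

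In the RefSeq annotation of another assembly, GRCz12tu, used only for the order of genes, 7 claudin genes follow each other with no other coding gene between them: cldn3c, cldn3d, cldnb, cldn29, cldnd, cldn28 and cldn30. The first of these were high in DBP+DiBP, with cldn3c at 2.97 FPKM, cldn3d at 53.0 and cldnb at 14.1, against 0.362, 4.43 and 1.54 in control. Further along, cldn29 was at 0.655 FPKM in DBP+DiBP and 1.38 in control, cldnd at 2.56 and 2.03, and cldn30 at 0.351 and 0.227. This run and the next were picked after their values were seen, from 18 runs of neighbouring junction genes. Whether gene order bears on the values was not tested. A second run of 6 connexin genes with 1 other coding gene among them holds gja1b, gja13.2, gja12.2, gja12.1, gja13.1 and gja11. By symbol, gja12.1 and gja13.1 were high in DBP+DiBP, while gja12.2 was at 0.0169 FPKM and gja11 at 0.526. Names of the gja12 and gja13 copies differ between the table of gene names and RefSeq. The places of their values within this run are therefore uncertain. No member carried the symbol gja1b as such. GJA1, whose capitals drop the copy letter and which is listed apart from gja1a, may be this gene. The levels of GJA1 are given in the Results, and its log2 ratio of DBP+DiBP to control was -0.70. Its place in this run was not tested.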
